A study of Mus musculus with 721 samples.

Results

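The LIF-gp130-STAT3 pathway was followed through its 7 core genes, Lif, Lifr, Il6st, Jak1, Stat3, Socs3 and Pim1, in single cells of the mouse embryo from the inner cell mass to gastrulation. The genes were chosen by symbol and not by their values, and each has 1 row among the 24483 rows of the count table. All embryos were Wild Type and of the strain C57Bl/6Babr. The wells came from E3.5 (99 wells, 10 embryos), E4.5 (105 wells, 5 embryos), E5.5 (267 wells, 9 embryos) and E6.5 (250 wells, 13 embryos), counting each combination of stage, plate and embryo number in the titles as 1 embryo. The 9 E3.5 wells of plate P11.P6.P10 have no embryo number and were taken as 1 embryo. The study counts fewer embryos at E6.5, which is the total that results when the E6.5 embryos with no plate name are taken as the same-numbered embryos of plate P1. The study's total over all stages is also below the 37 counted here, and that merge does not account for the whole difference. Trophectoderm, the outer layer of the blastocyst, was lysed and removed at E3.5 and E4.5, extraembryonic ectoderm was cut away at E5.5, and at E5.5 the epiblast was also parted from the visceral endoderm. E6.5 embryos were at the early streak stage, with extraembryonic tissue removed, and include cells titled E6.75. RNA with a poly(A) tail was read from each well with Smart-seq2 chemistry.

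LIF is a secreted cytokine that binds LIFR, and LIFR pairs with gp130, the product of Il6st, which serves the whole interleukin-6 family. The receptor-bound kinase JAK1 then phosphorylates STAT3, which enters the nucleus and switches on its targets, among them Socs3, whose protein blocks the receptor complex and closes a negative feedback loop, and Pim1, a serine/threonine kinase of cell survival. The pathway is best known for holding mouse embryonic stem cells in naive self-renewal and for keeping the epiblast alive in delayed blastocysts, and in the blastocyst the ligand is known mainly from the trophectoderm.

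Cells were placed in classes by clustering without any gene of the pathway, and clusters were named within a stage from marker genes. The classes were E3.5 inner cell mass (99 wells), E4.5 epiblast-like (27) and primitive endoderm (PrE)-like (78), E5.5 epiblast-like (259) and endoderm-like (8), and, at E6.5, endoderm-like (41), epiblast-like (184) and streak-like (25). The summed level of 25 endoderm markers was 19222 to 30204 CPM (counts scaled to a common library size) in E4.5 PrE-like and 14790 to 39004 in E6.5 endoderm-like embryos, against 2142 to 6003 in E4.5 epiblast-like, 732 to 1074 in E5.5 epiblast-like and 848 to 7574 in E6.5 epiblast-like embryos. E3.5 cells, at 489 to 2284 CPM for these markers and 2724 to 5590 for 12 epiblast markers, were kept as 1 class. Trophectoderm markers reached at most 341 CPM in any sum of 3 or more wells of a class and embryo. No sum holds 3 of the 8 E5.5 endoderm-like wells, which come from 3 embryos. On a marker score, the mean of standardised levels, their cluster was at 1.352 for trophectoderm and 1.007 for endoderm. The other 5 wells were at -0.088 and 1.113. The labels mark those 5 as visceral endoderm and none of the 3. Cdx2, Hand1 and Krt7 were at 0 in both E4.5 classes. At E3.5 the sums were 20.8 to 255 CPM, and 7 of the 8 markers were detected, all but Ascl2. Cdx2 had a mean of 16.1 CPM there and a highest value of 114. Single wells held 66896 to 3792936 counts, with a median of 692863.

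Counts of the same class and embryo were added up wherever 3 or more wells were present, which gave 50 sums of 1476466 to 49484352 counts, and the embryo was the replicate. The groups are 10 embryos at E3.5, 5 in each E4.5 class, 8 for E5.5 epiblast-like, 13 for E6.5 epiblast-like and 7 for E6.5 endoderm-like cells. E5.5 endoderm-like and E6.5 streak-like cells gave 1 sum each and have values with no test. Levels below are TMM-normalised CPM of these sums, as mean ± SD over embryos, and fold changes come from edgeR's quasi-likelihood test over 13490 genes with Benjamini-Hochberg adjustment. To pass, a gene needed a log2 fold change beyond 1 in either direction and an adjusted p of 0.05 or less. No plate name is shared between E3.5 and E4.5, so stage and plate cannot be told apart there. From E4.5 to E5.5 and from E5.5 to E6.5 only the name P1 is shared. The labels do not say whether it is the same plate, so stage and plate are not securely parted there either.

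Between E3.5 and the E4.5 epiblast-like cells 3 of the 7 genes passed, with Lifr higher and Stat3 and Socs3 lower, where 20.8% of all genes tested passed. The median log2 fold change of the 7 was -0.45, beside 0.0 over all genes. In PrE-like cells 2 of 7 passed against E3.5, Stat3 and Pim1, both lower, where 18.7% of all genes passed, with a median of -1.1 beside 0.17. Between the E4.5 lineages no member passed in edgeR's test, where 7.38% of all genes did, although 1 member, Pim1, had an unadjusted p under 0.05 and passed with DESeq2 (median 0.47 beside 0.07). From E4.5 to E5.5 epiblast 1 of 7 passed, Lifr, which fell (5.96% of all genes; median -1.76 beside 0.15). From E5.5 to E6.5 epiblast 2 of 7 passed, with Lifr higher and Socs3 lower (8.03% of all genes; median -0.1 beside 0.02). In endoderm, 1 of 7 passed from E4.5 to E6.5, Socs3, which was lower (12.5% of all genes; median 0.02 beside -0.1), and 1 of 7 passed between the E6.5 lineages, Stat3, which was higher in endoderm-like cells (15.8% of all genes; median 0.53 beside -0.22). These shares of 7 rest on 0 to 3 genes each and say nothing particular about the set. With plate name as a term in the fit, no member passed in the comparisons with E3.5 or between successive epiblast stages. That fit took equal names at different stages as the same plate.

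**Figure D1:**
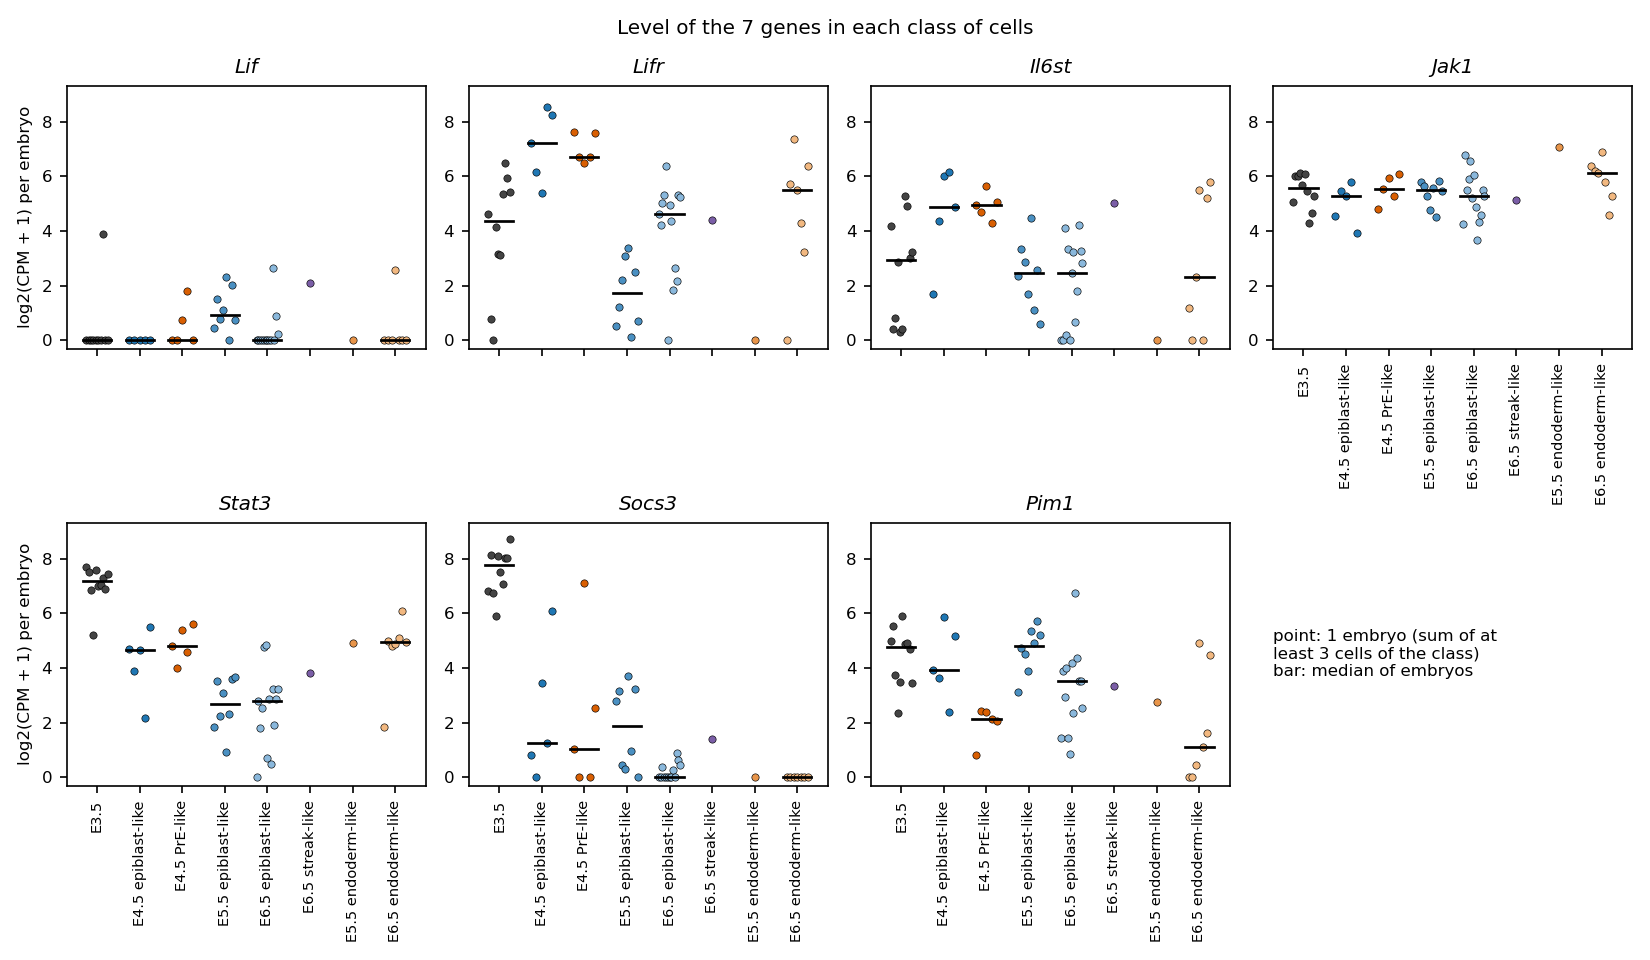
Level of each of the 7 genes as log2(CPM + 1) in each class of cells, with 1 point per embryo sum and a bar at the median of embryos. Among the classes with more than 1 embryo, Stat3 and Socs3 stood highest at E3.5 and Lifr and Il6st at E4.5, and Jak1 means lay between 34.2 and 65.2 CPM.

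The ligand gene was near the limit of detection in every class. Lif (ENSMUSG00000034394) spans chr11:4257557-4272514 on the plus strand of GRCm38, in the GENCODE M21 annotation used for all gene positions here. Lif had a read in 29 wells of the whole series. At E3.5 it was above 0 in 1 of 10 embryos, at 13.8 CPM, and that value came from 1 well. It had no read in any of the 27 E4.5 epiblast-like wells, which allows a share of wells with a read of up to 11.1%. In E4.5 PrE-like cells it was above 0 in 2 of 5 embryos, the higher at 2.49 CPM. E5.5 epiblast-like cells had the most embryos with a read, 7 of 8, with a lowest level of 0, a highest of 4.02 and a mean of 1.48 ± 1.4 CPM (SD, n = 8). The E6.5 epiblast-like level was above 0 in 3 of 13 embryos and the E6.5 endoderm-like level in 1 of 7, at 5.03 CPM. Lif passed in no comparison (adjusted p = 0.0882 for E4.5 epiblast-like against E3.5 and 0.162 for E5.5 against E4.5 epiblast-like). On the E6.5 plates P1 to P3 alone, an alternative chosen after seeing the data, it passed from E5.5 to E6.5 epiblast (-7.0, adjusted p = 0.0197) and between the E6.5 lineages (6.5, adjusted p = 0.0418). On those plates every epiblast-like sum was at 0, so both are fitted values and no measured folds, and the difference between the lineages rests on the 1 well behind the 5.03 CPM.

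Lifr, the ligand-binding receptor chain, was highest in the E4.5 lineages and lowest, among the classes with several embryos, in the E5.5 epiblast. It spans chr15:7090614-7197489 on the plus strand (ENSMUSG00000054263). Its levels in the 10 E3.5 embryos ran from 0 through a median of 20.1 to 88.9 CPM. The 5 E4.5 epiblast-like sums were at 40.6, 69.8, 146, 301 and 374 CPM, and the 5 PrE-like sums at 88.7, 103, 104, 192 and 197 CPM. In the 2 highest epiblast-like sums, of embryos 5 and 4, 1 well carried 60.3% and 66.0% of the Lifr counts. The lineages thus overlapped, and the higher E3.5 embryos reached into both. The mean rose from 28.7 ± 28.9 CPM at E3.5 to 186 ± 146 in E4.5 epiblast-like cells, a log2 fold change of 2.69 (SE 0.88, adjusted p = 0.022). This call was lost without E4.5 embryo 4 (adjusted p = 0.0868) or 5 (adjusted p = 0.0683). The PrE-like mean was 137 ± 53.0 CPM, with a log2 fold change against E3.5 of 2.25 (SE 0.88) that did not pass (adjusted p = 0.0623). It did pass with DESeq2 (2.31, adjusted p = 0.0469), with sums thinned to equal depth (adjusted p = 0.0334), with Ward clustering (adjusted p = 0.0495) and with only the classes compared in the fit (adjusted p = 0.0413). PrE-like and epiblast-like cells differed by -0.44 on the log2 scale (95% interval -2.52 to 1.63), an interval that leaves room for differences of either sign.

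Across implantation the Lifr level dropped out of the range of both E4.5 lineages, though not out of that of E3.5. The 8 E5.5 epiblast-like sums lay between 0.078 and 9.52 CPM with a median of 2.49, all below the lowest E4.5 epiblast-like sum. The log2 fold change was -5.74 (SE 1.06, adjusted p = 0.000254), from 186 to 3.48 ± 3.53 CPM. At E6.5 the 13 epiblast-like embryos ranged from 0 through 23.4 to 82.0 CPM, which overlaps E5.5 at its low end, and the mean of 25.4 ± 22.2 CPM was higher by 2.87 on the log2 scale (SE 0.86, adjusted p = 0.0218). The 7 E6.5 endoderm-like sums spread from 0 through 43.9 to 165 CPM and passed neither against E6.5 epiblast-like cells (1.05, SE 0.76, adjusted p = 0.359) nor against PrE-like cells (-1.37, SE 0.97, adjusted p = 0.384).

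The share of wells with a read was also highest at E4.5 at equal depth. With every well thinned to 100000 counts, Lifr was read in 48.5% of E3.5 wells (exact binomial 95% interval 38.3 to 58.7), 88.9% of E4.5 epiblast-like wells (70.8 to 97.6) and 82.1% of PrE-like wells (71.7 to 89.8). In the E5.5 epiblast it was read in 6.56% (3.87 to 10.3), and at E6.5 in 44.0% of epiblast-like wells and in 18 of 40 endoderm-like wells. Without thinning the shares were 61.6%, 96.3%, 89.7% and 9.27% for the first 4 of these classes. The intervals cover counting error only, and reads copied by PCR without molecular tags are not independent molecules.

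**Figure D2:**
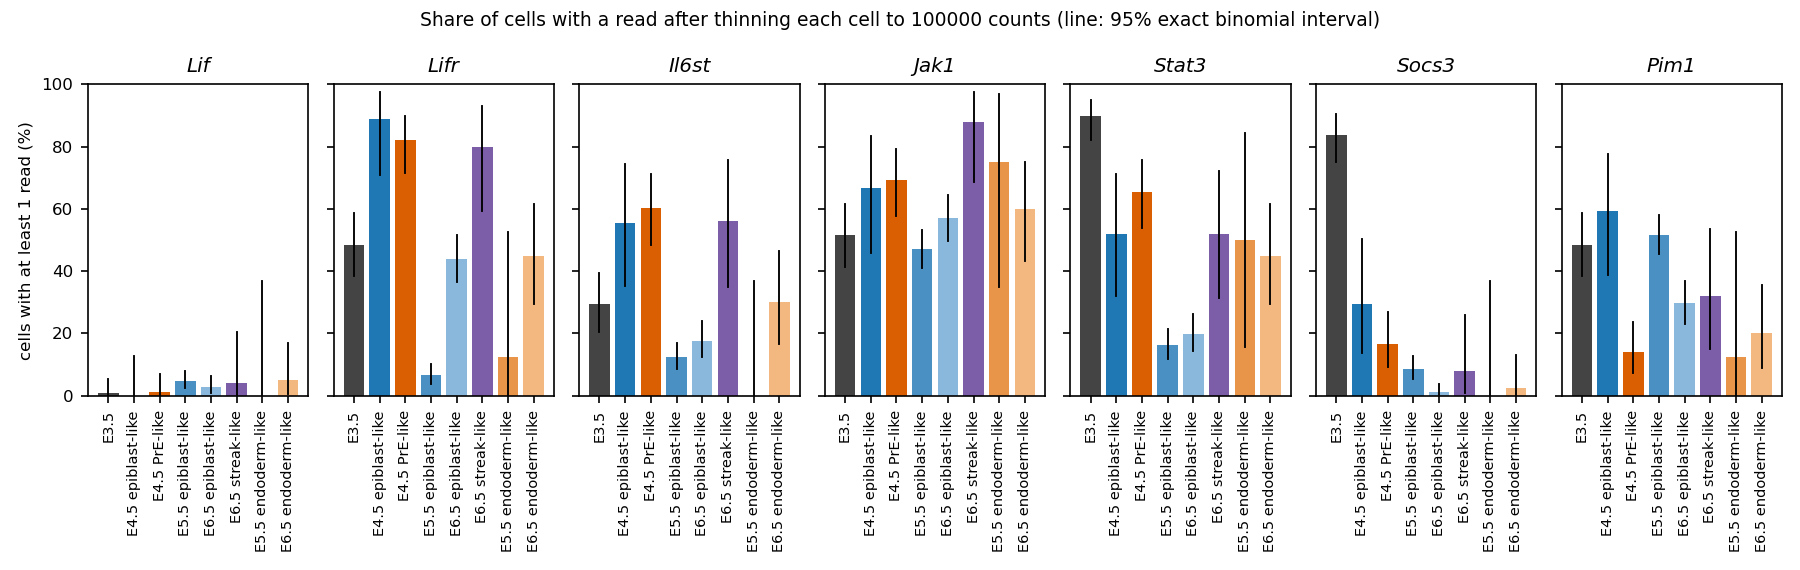
Share of wells with at least 1 read of each gene (percent, wells thinned to 100000 counts) in each class, with exact binomial 95% intervals. Lifr is read in 82.1% to 88.9% of E4.5 wells and in 6.56% of E5.5 epiblast-like wells, whereas Socs3 is read in 83.8% of E3.5 wells and in 1.1% of E6.5 epiblast-like wells.

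Il6st, which encodes the shared signalling chain gp130, also had its highest means, among the classes with several embryos, in the E4.5 lineages. It passed in no comparison. The single streak-like sum, at 31.7 CPM, lay above the PrE-like mean of 30.9. The gene (ENSMUSG00000021756) spans chr13:112464070-112510086 on the plus strand. The E3.5 embryos lay between 0.251 and 37.5 CPM with a median of 6.71. The E4.5 epiblast-like sums were at 2.26, 19.6, 28.2, 63.7 and 70.8 CPM and the PrE-like sums at 18.8, 24.9, 29.7, 32.2 and 49.2 CPM, so that both E4.5 classes overlapped E3.5. The log2 fold change against E3.5 was 1.77 (SE 1.1, adjusted p = 0.263) in epiblast-like and 1.51 (SE 1.1, adjusted p = 0.375) in PrE-like cells. In the E5.5 epiblast 7 of 8 embryos were at or below 9.06 CPM and 1 was at 21.1, and the log2 fold change from E4.5 was -2.57 (SE 1.18, adjusted p = 0.193). The E6.5 epiblast-like mean, 5.7 ± 6.11 CPM, was close to the E5.5 mean of 6.19 ± 6.64, with an interval of the log2 difference from -1.93 to 1.73. E6.5 endoderm-like sums spread from 0 to 53.8 CPM around a mean of 19.9 ± 23.8.

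Both receptor chains were read in the same well most often at E4.5. In thinned wells, Lifr and Il6st were both read in 16 of 99 wells at E3.5 (16.2%), 13 of 27 E4.5 epiblast-like wells (48.1%) and 43 of 78 PrE-like wells (55.1%). The same was true of 2 of 259 E5.5 epiblast-like wells (0.772%) and 19 of 182 E6.5 epiblast-like wells (10.4%). In the streak-like wells, 24 of 25 of which come from 1 embryo, it was 11 of 25 (44.0%), against 6 of 40 endoderm-like wells (15.0%). Wells titled as holding 2 cells were 9 of 99 at E3.5, 7 of 27 E4.5 epiblast-like and 31 of 78 PrE-like wells. They were 66 of 259 in the E5.5 and 10 of 184 in the E6.5 epiblast-like class. Such a well can have reads of both genes from different cells, and the shares were not taken over single wells alone. These shares are descriptions without a test.

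Among E3.5 embryos the receptor levels split by plate. Lifr lay between 0 and 16.6 CPM in the 5 embryos of plate P8 and between 40.3 and 88.9 CPM in the 4 embryos of plate P9, with 23.6 in the embryo of the remaining plate. Il6st was at 0.251 to 6.39 CPM on P8 and at 7.04 to 37.5 on P9, and Jak1 went the other way, with 49.9 to 69.3 CPM on P8 and 18.6 to 42.9 on P9. For these 3 genes the plates did not overlap, while the mean Stat3 and Socs3 levels were 129 and 179 CPM on P8 and 144 and 270 CPM on P9. The share of all genes that part these plates was not counted, so the split is not shown to be particular to the 3 genes. In P8 embryos 1, 3, 4 and 5, 1 well carried 93.9% to 100% of the Jak1 counts. P8 embryos gave 3 to 4 wells each and P9 embryos 11 to 28, and the median count per well was 903545.5 on P8 and 481625.5 on P9. Endoderm markers summed to 489 to 1381 CPM on P8 and 941 to 2284 on P9, and epiblast markers to 2724 to 3879 and 3802 to 5590. Trophectoderm markers summed to 20.8 to 255 CPM on P8 (median 94.9) and 27.1 to 137 on P9 (median 38.0). The part of these differences in the receptor levels was not tested. Against P8 embryos alone the PrE-like Lifr difference was 4.32 (adjusted p = 0.00726) and the Il6st difference 4.22 (adjusted p = 0.0367), and against P9 embryos alone neither passed, nor did Lifr in epiblast-like cells (1.67, adjusted p = 0.319). Against either plate alone the lower Socs3 in epiblast-like cells (adjusted p = 0.0953 for P8 and 0.0823 for P9) and the lower Stat3 in PrE-like cells (adjusted p = 0.0736 and 0.0911) no longer passed.

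**Figure D3:**
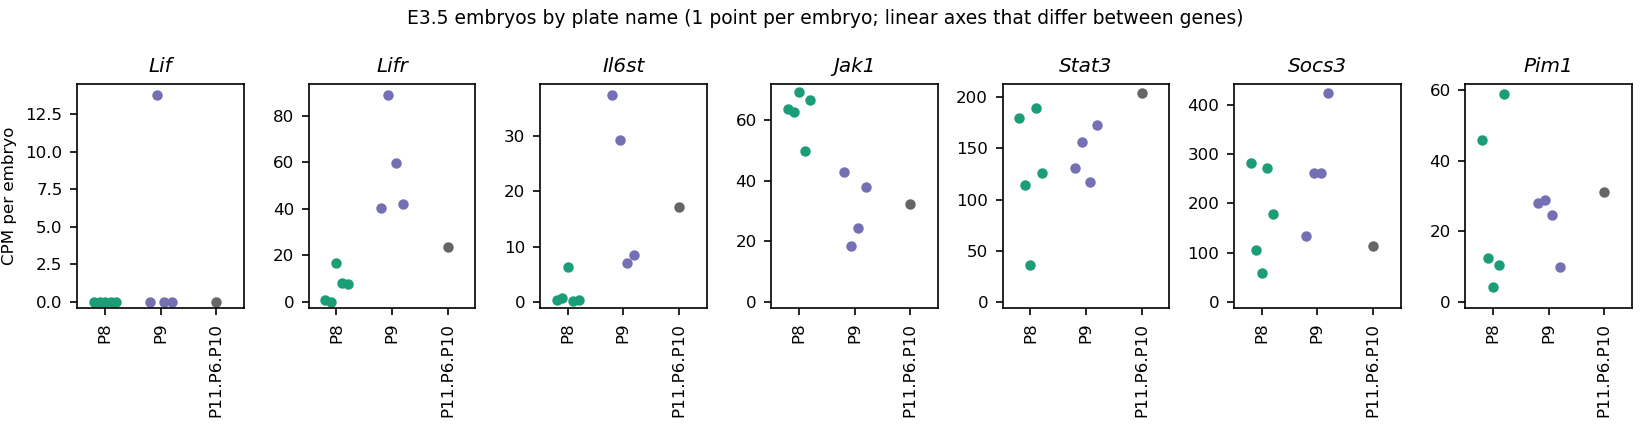
Levels (CPM) of the 7 genes in the E3.5 embryos, with 1 point per embryo and plates drawn apart. Lifr is at most 16.6 CPM in the 5 embryos of plate P8 and at least 40.3 CPM in the 4 embryos of plate P9, and Jak1 is higher on P8.

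Jak1, the kinase bound to gp130, varied least between classes and passed in no comparison. It spans chr4:101152367-101265282 on the minus strand (ENSMUSG00000028530). Mean levels were 46.9 ± 18.4 CPM at E3.5 (n = 10), 34.2 ± 15.9 in E4.5 epiblast-like cells, 47.6 ± 16.1 in PrE-like cells (n = 5 each), 41.7 ± 12.3 in the E5.5 epiblast (n = 8), 45.2 ± 29.1 in the E6.5 epiblast (n = 13) and 65.2 ± 31.0 in E6.5 endoderm-like cells (n = 7). All neighbouring classes in this order overlapped. The log2 fold changes ran from -0.45 to 0.53 with SEs of 0.35 to 0.5. The narrowest interval, for E6.5 against E5.5 epiblast-like cells, was -0.58 to 0.8, so a 2-fold change in either direction lies outside it. The single E5.5 endoderm-like sum stood at 135 CPM, above every other sum, with 58.6% of its counts from 1 well.

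Stat3, the transcription factor on which the pathway converges, had its highest level in the E3.5 inner cell mass and passed as lower in both E4.5 lineages. The E3.5 embryos ran from 35.8 through a median of 144 to 204 CPM. The E4.5 epiblast-like sums were at 3.52, 13.8, 24.0, 24.8 and 44.5 CPM and the PrE-like sums at 15.1, 23.2, 26.7, 40.7 and 47.7 CPM. Only the lowest E3.5 embryo reached into the E4.5 range. The mean fell from 143 ± 49.2 to 22.1 ± 15.2 CPM in epiblast-like cells, a log2 fold change of -2.68 (SE 0.77, adjusted p = 0.00841), and this call held without any one E4.5 embryo (adjusted p at most 0.0327). The PrE-like mean was 30.7 ± 13.3 CPM, with a log2 fold change of -2.22 (SE 0.75, adjusted p = 0.0275) that was lost without E4.5 embryo 1, 2 or 4 (adjusted p = 0.0582 to 0.0678). Between the E4.5 lineages the difference was 0.47 (95% interval -1.05 to 1.99).

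After implantation the epiblast mean of Stat3 was lower again, in a difference that did not pass. The E5.5 epiblast-like sums lay between 0.899 and 11.9 CPM with a mean of 6.53 ± 4.28, and the log2 fold change from E4.5 was -1.76 (SE 0.69, adjusted p = 0.112). The E6.5 epiblast-like mean was 7.71 ± 9.01 CPM, in a range of 0 to 27.5. E6.5 endoderm-like sums were at 2.6 CPM in 1 embryo and at 27.0 to 66.2 in the other 6. In the sum at 27.0 CPM 1 well carried 99.5% of the counts, and in the epiblast-like sum at 26.4 CPM 1 well carried 98.4%. The endoderm-like mean was 31.1 ± 18.6 CPM. This was 4.01-fold the epiblast-like level (log2 fold change 2.0, SE 0.56, adjusted p = 0.0102). The PrE-like and E6.5 endoderm-like means thus lay side by side, with a log2 difference of 0.02 (95% interval -1.38 to 1.42). Of the 7 embryos with sums of both E6.5 lineages, each was its own pair, and in the fit with the embryo as a block the Stat3 difference was 1.67 and did not pass (adjusted p = 0.365). It also did not pass without the cells titled E6.75 (1.64, adjusted p = 0.0793) or on plates P1 to P3 alone (1.58, adjusted p = 0.118). Primitive streak markers summed to 300 to 2272 CPM in the endoderm-like sums and to 25.2 to 536 in the epiblast-like sums, and the maternal tissue and blood markers reached 745 CPM in 1 endoderm-like embryo, and their part in the Stat3 difference was not tested. Whether the lineages differed more at E6.5 than at E4.5 was tested as an interaction, which Stat3 did not pass (1.53, SE 0.96, adjusted p = 0.44). No other member passed it either in edgeR's test, where 4.16% of all genes did, and no member had an unadjusted p under 0.05.

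**Figure D4:**
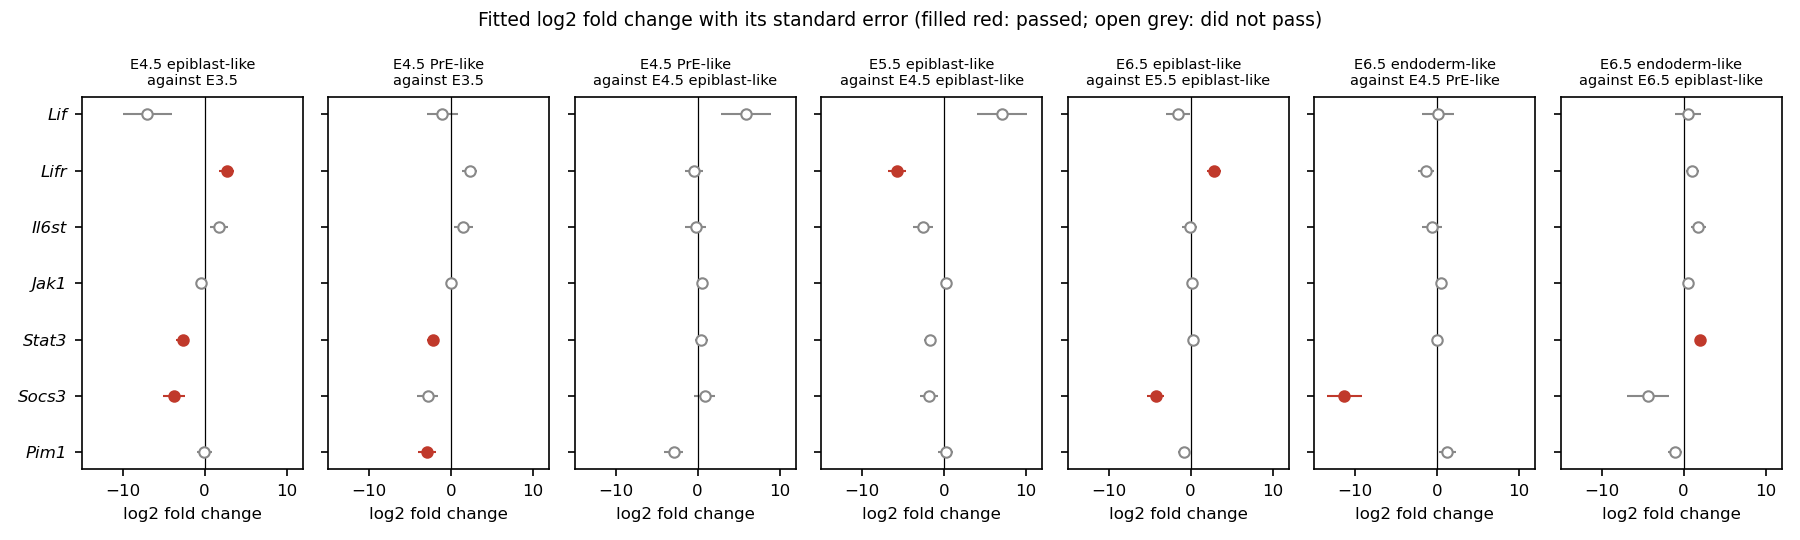
Log2 fold changes of the 7 genes (x axis) in the 7 comparisons, with red filled points for genes that passed and open grey points for the others. Bars are approximate standard errors, derived from the fold change and the F statistic of edgeR's test. Lifr has the largest drop in the epiblast (-5.74 from E4.5 to E5.5), and the point for Socs3 from E4.5 to E6.5 endoderm rests on 0 counts at E6.5 and is a fitted value, no measured fold.

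Socs3, which encodes the feedback inhibitor of the receptor complex, was the most abundant of the 7 per kilobase of exon at E3.5 and had a lower mean at each later stage, unevenly between embryos. The E3.5 embryos ran from 59.1 through a median of 220 to 423 CPM. The E4.5 epiblast-like sums were at 0, 0.752, 1.41, 9.82 and 66.3 CPM and the PrE-like sums at 0, 0, 1.08, 4.85 and 137 CPM. In each lineage 1 embryo reached the E3.5 range and the other 4 lay far below it. The mean was 209 ± 110 CPM at E3.5 and 15.7 ± 28.6 in E4.5 epiblast-like cells (log2 fold change -3.72, SE 1.36, adjusted p = 0.0413). The PrE-like mean was 28.5 ± 60.5 CPM, and its difference from E3.5 did not pass (-2.88, SE 1.29, adjusted p = 0.112).

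The high E4.5 values came from 1 embryo in each lineage, where 1 well gave 50.6% of the Socs3 counts in the PrE-like and 55.6% in the epiblast-like sum. In PrE-like cells of E4.5 embryo 3, all 9 wells had a Socs3 read, against 6 of 69 wells in the other 4 embryos. In its epiblast-like cells 4 of 4 wells had a read. The epiblast-like maximum belonged to embryo 5, where 4 of 6 wells had a read, against 6 of 21 in the others. Without embryo 3 the PrE-like difference from E3.5 was -7.12 and passed (adjusted p = 0.00163). Without embryo 5 the epiblast-like difference was -6.13 (adjusted p = 0.00699), and without any one of the other 4 it no longer passed (adjusted p = 0.0508 to 0.0804). The difference between the E4.5 lineages was 0.84 (95% interval -1.69 to 3.37) and ran from -3.47 without embryo 3 to 3.49 without embryo 5, so these data give it no direction.

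After implantation Socs3 was low in the E5.5 epiblast and near the limit of detection at E6.5. The E5.5 epiblast-like sums were at 0, 0.233, 0.37, 0.936, 5.92, 7.92 and 8.29 CPM and at a highest value near 12 CPM, with a mean of 4.46 ± 4.67, and the E6.5 epiblast-like sums between 0 and 0.867, with 8 of 13 at 0. In the E5.5 sums at 5.92 and 7.92 CPM, 1 well gave 77.5% and 68.6% of the counts. The epiblast-like difference from E5.5 to E6.5 was -4.28 on the log2 scale (SE 1.03, adjusted p = 0.00385). All 7 E6.5 endoderm-like sums were at 0 counts, against 889 counts in the 5 PrE-like sums, which puts the level over these sums at least 144-fold lower when 3 counts over the group are taken as the floor (adjusted p = 0.000375). Of those 889 counts, 795 came from embryo 3, and without it the bound was 16.6-fold (adjusted p = 0.0286). Of the 41 E6.5 endoderm-like wells 1 had a Socs3 read, in an embryo with fewer than 3 such wells. With the E6.5 embryos lacking a plate name merged into plate P1, this well enters a sum, so that the bound no longer applies, and the log2 fold change was -6.11 (adjusted p = 0.00185).

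Stat3 and Socs3 were read in the same wells chiefly at E3.5. In thinned wells both were read in 75 of 99 wells at E3.5 (75.8%), 6 of 27 E4.5 epiblast-like wells (22.2%), 11 of 78 PrE-like wells (14.1%) and 2 of 259 E5.5 epiblast-like wells (0.772%). None of 182 E6.5 epiblast-like wells and none of 40 E6.5 endoderm-like wells had both. In the PrE-like class, Stat3 without Socs3 was the larger share, at 40 of 78 wells (51.3%). Over the 50 sums the log2(CPM + 1) levels of Stat3 and Socs3 had a Pearson correlation of 0.68, a description over sums that share embryos, stages and plates.

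The 250 bases before the transcription start of these 2 genes, both of which passed as lower in E4.5 epiblast-like cells than at E3.5, are shown because activated STAT dimers are known to bind the palindrome TTCNNNGAA. The windows are from RefSeq on GRCm38.p6, on the minus strand, printed 5′ to 3′ with any match to the palindrome in capitals, and matches were sought on both strands, where a palindrome reads alike. The Socs3 window is chr11:117969367-117969616 and the Stat3 window chr11:100939541-100939790.
Socs3: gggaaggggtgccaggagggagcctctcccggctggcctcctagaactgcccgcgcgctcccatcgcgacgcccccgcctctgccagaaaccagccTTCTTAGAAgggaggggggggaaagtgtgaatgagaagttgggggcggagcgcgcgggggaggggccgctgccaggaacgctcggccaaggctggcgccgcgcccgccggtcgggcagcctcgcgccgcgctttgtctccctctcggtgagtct
Stat3: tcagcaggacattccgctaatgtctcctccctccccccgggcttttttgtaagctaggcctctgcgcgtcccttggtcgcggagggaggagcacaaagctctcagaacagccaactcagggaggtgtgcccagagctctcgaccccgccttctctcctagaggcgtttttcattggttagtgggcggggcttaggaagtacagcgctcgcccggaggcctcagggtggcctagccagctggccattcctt

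The Socs3 window holds 1 match, 154 bases before the start site, and the Stat3 window none. The motif was found in 1 of the 9 windows of the 7 genes and in 7.02% of all 32851 RefSeq windows of this length. A match is a string of letters and no measured binding site, and its absence refers to this window only. In GENCODE M21 on GRCm38, Socs3 (ENSMUSG00000053113) spans chr11:117966079-117970047 and Stat3 (ENSMUSG00000004040) spans chr11:100885098-100939540, both on the minus strand, so the Socs3 window lies within the annotated gene.

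Pim1, a kinase gene known as a STAT3 target, had its lowest mean level in PrE-like cells. It spans chr17:29490753-29496112 on the plus strand (ENSMUSG00000024014). Its E3.5 sums ran from 4.15 through 26.4 to 58.8 CPM, and the E4.5 epiblast-like sums were at 4.23, 11.5, 14.3, 35.3 and 57.9 CPM, within the E3.5 range. The PrE-like sums were at 0.769, 3.23, 3.4, 4.3 and 4.37 CPM. Of the epiblast-like sums only the lowest fell within the PrE-like range. The E3.5 mean was 25.4 ± 17.2 CPM and the PrE-like mean 3.21 ± 1.46, a log2 fold change of -2.98 (SE 1.08, adjusted p = 0.0415) that was lost whenever 1 E4.5 embryo was left out (adjusted p = 0.063 to 0.1). This call was also lost in single wells (-2.18, adjusted p = 0.155), at equal depth (adjusted p = 0.0722) and in sums of at least 1 cell (adjusted p = 0.104). Against E3.5 plate P8 or P9 alone it did not pass either (adjusted p = 0.0593 and 0.114). It was kept in 8 of 19 alternatives. PrE-like against epiblast-like cells gave -2.94 (SE 1.14, adjusted p = 0.103). In the epiblast the E4.5 mean was 24.7 ± 21.9 CPM, the E5.5 mean 28.1 ± 14.1 and the E6.5 mean 16.3 ± 27.6, where 1 embryo reached 106 CPM, all of it from 1 well, and the median was 10.6. Neither step passed (0.18, SE 0.96, and -0.78, SE 0.74). In thinned wells Pim1 was read in 14.1% of PrE-like wells (exact binomial 95% interval 7.26 to 23.8), against 48.5% at E3.5 (38.3 to 58.7), 59.3% in E4.5 epiblast-like wells (38.8 to 77.6) and 51.7% in E5.5 epiblast-like wells (45.5 to 58.0).

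Per kilobase of exon the order of the 7 genes changed between classes. Mean levels at E3.5 were 72.3 CPM per kb for Socs3, 15.0 for Stat3, 7.56 for Pim1, 6.49 for Jak1 and 2.67 for Lifr. In E4.5 epiblast-like cells Lifr led at 17.3 CPM per kb, followed by Pim1 at 7.33 and Socs3 at 5.42, and Stat3 was at 2.32. Lifr also led in PrE-like cells at 12.7 CPM per kb, ahead of Socs3 at 9.87 and Jak1 at 6.59. In the E5.5 epiblast Pim1 (8.34) and Jak1 (5.77) led, and in the E6.5 endoderm-like class Jak1 (9.03), Lifr (4.9) and Stat3 (3.27). Within each gene the ranges of neighbouring classes in the order of the mean overlapped in every case.

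The 2 classes with 1 sum each are given as values. The E5.5 endoderm-like sum of 5 wells had 29.1 CPM of Stat3 and 135 of Jak1. A single well carried 94.4% of these Stat3 counts, and 1 well carried 58.6% of the Jak1 counts. The class holds 8 wells, among them the 3 whose cluster had a trophectoderm score above its endoderm score. Of the 8 wells, 0 had a Socs3 read after thinning to 100000 counts and 1 had one without thinning. The E6.5 streak-like sum of 24 wells had 20.4 CPM of Lifr, 31.7 of Il6st, 33.9 of Jak1, 13.1 of Stat3 and 1.66 of Socs3.

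The wider pathway was described with 56 further genes, of which 54 have a row and 48 passed the low-count filter. The number that passed was 7 for E4.5 epiblast-like against E3.5 (14.6% of 48, median log2 fold change 0.04), 5 for PrE-like against E3.5 (10.4%, -0.36), 3 between the E4.5 lineages (6.25%, -0.14), 3 from E4.5 to E5.5 epiblast (6.25%, -0.44), 2 from E5.5 to E6.5 epiblast (4.17%, -0.2), 6 from E4.5 to E6.5 endoderm (12.5%, -0.32) and 11 between the E6.5 lineages (22.9%, -0.03). These shares stand beside 20.8%, 18.7%, 7.38%, 5.96%, 8.03%, 12.5% and 15.8% of all genes. With plate name as a term, none of the genes named below passed against E3.5 or between successive epiblast stages. An E3.5 or E4.5 embryo whose omission ended a call is named beside the gene, as are the cells titled E6.75 where leaving them out did so.

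Among ligands and receptors of the family, 2 genes that had no count at E3.5 passed as higher in E4.5 epiblast-like cells. Cntfr, the binding chain for ciliary neurotrophic factor, was at least 44.2-fold higher (3 counts over the E3.5 group as the floor, adjusted p = 0.000805), and Ebi3, a subunit of interleukin-27, at least 23.6-fold (adjusted p = 0.0196), though their mean levels were only 2.56 and 0.81 CPM. Ebi3 rests on 23 counts in 1 of 5 embryos and did not pass without that embryo, number 4 (adjusted p = 1.0), or with DESeq2 (adjusted p = 0.251). Il6ra, the interleukin-6 binding chain, had no count in E6.5 epiblast-like cells and was at least 37.8-fold lower than at E5.5 (adjusted p = 0.0109), from a mean of 0.632 CPM, and did not pass with DESeq2 (adjusted p = 0.0567). Ctf2 fell from 5.79 CPM in PrE-like to 0.124 CPM in E6.5 endoderm-like cells (log2 fold change -5.75, SE 1.91, adjusted p = 0.0368), a call lost without E4.5 embryo 1 (adjusted p = 0.0527) or 3 (adjusted p = 0.0564) and without the cells titled E6.75 (adjusted p = 0.09). Between the E6.5 lineages Clcf1, a cytokine, and Cntfr had no count in endoderm-like cells and were at least 20.8-fold and 8.91-fold lower there (adjusted p = 0.0103 and 0.0222). Neither passed on plates P1 to P3 alone (adjusted p = 0.102 and 0.107), nor did Cntfr without the cells titled E6.75 (adjusted p = 0.0722).

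Of the 6 other STAT genes, Stat4 and Stat5b passed in at least 1 of the 7 comparisons. Over all genes 5.96% to 20.8% passed per comparison, and the share that passed in at least 1 was not counted. Stat4 had no count at E3.5 and 6.63 CPM in E4.5 epiblast-like cells, at least 175-fold higher (adjusted p = 0.000727), with counts in 2 of 5 embryos. Stat5b, which lies in the same gene cluster of chromosome 11 as Stat3, had 8.51 CPM at E3.5 and no count in E4.5 epiblast-like cells, at least 39.6-fold lower (adjusted p = 0.00371), and was at least 12.3-fold higher in PrE-like than in epiblast-like cells (adjusted p = 0.0371). The latter call was lost without any one of the 5 E4.5 embryos (adjusted p = 0.0744 to 0.124) and with Ward clustering (3.36, adjusted p = 0.227). At E6.5 Stat5b was again higher in endoderm-like cells, 26.4 against 2.31 CPM (log2 fold change 3.5, SE 1.1, adjusted p = 0.0221), while Stat4 had no count there and was at least 17.0-fold lower (adjusted p = 0.0282). Without the cells titled E6.75 neither passed (adjusted p = 0.0632 for Stat5b and 0.0828 for Stat4), nor did either on plates P1 to P3 alone (adjusted p = 0.0559 and 0.0913). Of the kinases only Jak3 passed, with no count in E6.5 endoderm-like cells, at least 8.42-fold below PrE-like (adjusted p = 0.0363) and at least 7.0-fold below epiblast-like cells (adjusted p = 0.0301), from means of 1.35 and 0.981 CPM. With the E6.5 embryos lacking a plate name merged into plate P1, Jak3 passed neither (adjusted p = 0.404 and 0.459), nor did it without the cells titled E6.75 (adjusted p = 0.0626 and 0.0628), and the former was also lost without E4.5 embryo 2 (adjusted p = 0.0986).

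Among inhibitors related to Socs3, Socs2 was lower in the endoderm lineage at both stages. Socs2 was at 155 CPM at E3.5, 221 in E4.5 epiblast-like and 19.6 in PrE-like cells, and PrE-like embryos overlapped neither (log2 fold change -2.99, SE 0.47, adjusted p = 2.88e-06 against E3.5, and -3.5, SE 0.51, adjusted p = 5.94e-06 against epiblast-like). The same held at E6.5, with 25.3 CPM in endoderm-like and 197 in epiblast-like cells (-2.96, SE 0.4, adjusted p = 6.13e-07). Socs1 fell from 10.6 CPM at E5.5 to 1.11 CPM at E6.5 in the epiblast (-3.23, SE 0.96, adjusted p = 0.022). In endoderm it went from 1993 counts over the PrE-like sums to no count at E6.5, at least 323-fold lower (adjusted p = 0.000136), and it was at least 8.99-fold lower than in E6.5 epiblast-like cells (adjusted p = 0.0136). On plates P1 to P3 alone the difference from the E5.5 epiblast and that between the E6.5 lineages did not pass (adjusted p = 0.0531 and 0.0625). Pias2, a SUMO ligase of the PIAS family, was at 93.3 CPM at E3.5, 204 in E4.5 epiblast-like, 60.6 in PrE-like and 73.9 in E5.5 epiblast-like cells, and passed in the 3 comparisons with the E4.5 epiblast (1.13, -1.75 and -1.47, adjusted p = 0.0364, 0.0213 and 0.0271). These calls were lost without single E4.5 embryos, against E3.5 without embryo 1, 2, 3 or 5 (adjusted p = 0.0683 to 0.152), between the lineages without 1, 2 or 3 (adjusted p = 0.0604 to 0.112) and to E5.5 without 2, 3 or 5 (adjusted p = 0.0588 to 0.0965), and all 3 in sums of at least 1 cell (adjusted p = 0.0961, 0.0928 and 0.0884).

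Against E3.5, 1 of 4 adaptors and 1 of 12 targets tested passed in E4.5 epiblast-like cells, each as lower. In PrE-like cells 1 adaptor and 3 targets passed, all as lower. Over all genes 20.8% and 18.7% passed in these comparisons. Ptpn11, the phosphatase that links gp130 to the RAS pathway, fell from 119 to 46.3 CPM in epiblast-like cells (log2 fold change -1.37, SE 0.42, adjusted p = 0.0134), and the adaptor Grb2 from 124 to 33.2 CPM in PrE-like cells (-1.89, SE 0.47, adjusted p = 0.00236). In sums of at least 1 cell neither Ptpn11 nor Grb2 passed (adjusted p = 0.0939 and 0.0633). Klf5, a naive pluripotency factor, fell from 530 to 117 CPM in epiblast-like cells (-2.18, SE 0.76, adjusted p = 0.0313), a call lost without E4.5 embryo 1, 2, 4 or 5 (adjusted p = 0.0539 to 0.0791), and to 3.37 CPM at E5.5 (-5.1, SE 0.77, adjusted p = 9e-06). The call against E3.5 was also lost against plate P9 alone (adjusted p = 0.0734), with Ward clustering (adjusted p = 0.0755) and in sums of at least 1 cell (adjusted p = 0.0739). In endoderm Klf5 went from 314 CPM in PrE-like to 13.0 CPM in E6.5 endoderm-like cells (-4.58, SE 0.79, adjusted p = 7e-05). Tfcp2l1, a further naive factor, was at 651 CPM at E3.5 and 36.9 in PrE-like cells (-4.14, SE 1.07, adjusted p = 0.00382), and fell from 165 CPM in E4.5 to 2.33 CPM in E5.5 epiblast-like cells (-6.12, SE 1.0, adjusted p = 4.35e-05). Klf4 and Myc also fell from E3.5 to PrE-like cells, from 149 to 9.89 CPM (adjusted p = 0.0146) and from 32.1 to 5.77 CPM (adjusted p = 0.0444). The Myc call was lost without E4.5 embryo 2, 4 or 5 (adjusted p = 0.104 to 0.12), without the E3.5 embryo that has no number (adjusted p = 0.053), against either E3.5 plate alone and with only the classes compared (adjusted p = 0.131). Klf4 did not pass against plate P9 alone (adjusted p = 0.128). Gbx2 had no count in E6.5 endoderm-like cells, at least 25.8-fold below PrE-like (adjusted p = 0.01) and at least 6.85-fold below epiblast-like cells (adjusted p = 0.0218), the latter lost without the cells titled E6.75 (adjusted p = 0.0507). Mcl1, a survival gene of the BCL2 family, was the only one of the list that passed as higher in E6.5 endoderm-like than in PrE-like cells, from 91.8 to 247 CPM (1.43, SE 0.32, adjusted p = 0.00199). Between the E6.5 lineages, 1 adaptor and 2 targets passed as higher in endoderm-like cells, and 1 target, Gbx2, as lower. The higher ones had smaller changes and fell outside the 8 genes named for that comparison.

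**Figure D5:**
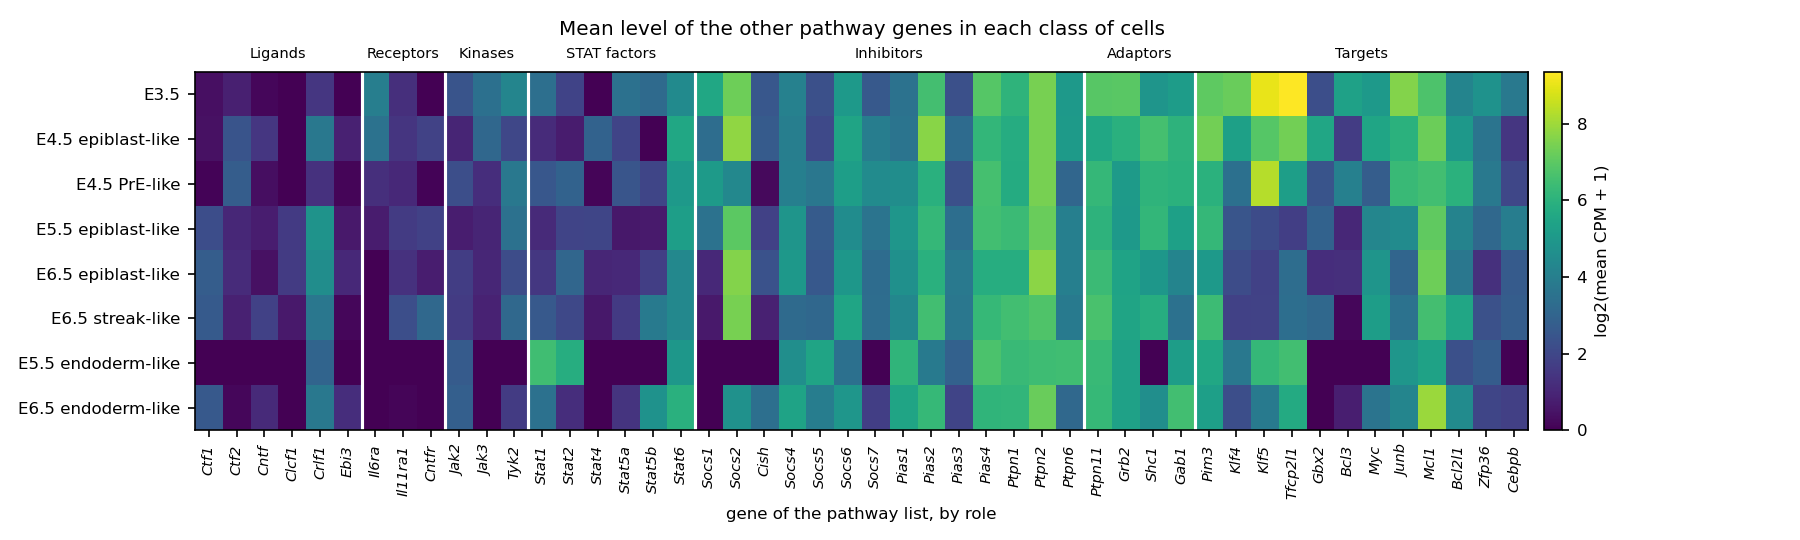
Mean level of the genes of the wider pathway, as log2(CPM + 1), in each class, with genes grouped by role. Klf5 goes from 530 CPM at E3.5 to 3.37 CPM in the E5.5 epiblast, and Socs2 is at 19.6 CPM in PrE-like and 221 CPM in E4.5 epiblast-like cells.

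The genes whose levels over the 50 sums were most like those of each member were listed by Pearson correlation of log2(CPM + 1), as a description over sums that share embryos and plates. For Socs3 they were Tmem191c (0.89), Gch1 (0.89) and Tex19.2 (0.87), and for Stat3 Etfa (0.82), Mras (0.79) and Fam129a (0.79). Lifr was most like Klhl28 (0.63), B4galt6 (0.62) and Rpe (0.6), and Il6st most like Aak1 (0.69), Sh2d4b (0.67) and Foxk1 (0.66). Pim1 was nearest to Rps29 (0.66), Mrpl43 (0.66) and Rae1 (0.63), Jak1 to Phf20l1 (0.58), Fzd8 (0.57) and D19Ertd737e (0.52), and Lif to Leprel2 (0.6), Gpatch3 (0.57) and Ndst2 (0.57). Between members, Lifr and Il6st had a correlation of 0.58 and Socs3 and Pim1 of 0.39.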

How the data were processed

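The authors trimmed the reads (Trim Galore 0.4.3), aligned them with HISAT2 2.0.5 to GRCm38 per the labels and counted reads on genes with SeqMonk (mapping quality of at least 20), and what they deposited are raw counts, without normalisation, of each gene in each well. Wells titled as holding 2 cells (128) were kept, and an alternative used the rest. Genes on chromosomes 1 to 19 were analysed. Smart-seq2 reads carry no strand, so overlapping genes cannot be told apart.

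Wells were grouped in the manner of SC3 (Euclidean, Pearson and Spearman distances, k-means, consensus) in Python 3.11.15 with scikit-learn 1.9.0, on 10688 genes seen in 6 to 94% of wells, with 61 rows of the pathway held out, into 8 clusters, and into 5 at E6.5 alone. A sum took at least 3 wells of a class in an embryo. All sums were fitted together in edgeR 4.0.16 (R 4.3.3) with TMM normalisation, its low-count filter and the quasi-likelihood test. P-values measure the spread between embryos. Pairs of lineages share the embryo, and their deviations from the class means correlated at 0.0235 to 0.138 at E4.5 and at 0.0314 to 0.293 at E6.5. The fold against a group with no count was taken against 3 counts over that group. Wells were thinned to 100000 counts for shares, which left out 2 E6.5 epiblast-like wells and 1 endoderm-like well. On simulated data with 200 genes changed 8-fold, the fit recovered 76 (E4.5 lineages, 13216 genes) to 139 (E5.5 to E6.5 epiblast, 13195 genes) of them, with 3 and 12 false calls.

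The members and lists were chosen with earlier results of these data known. The genes named are the 7 members, up to 8 genes of the pathway list that passed in a comparison, largest change first, and the 3 genes most like each member. Alternatives were DESeq2 1.42.0, RLE normalisation, no filter, other limits on the fold, Ward clustering, 1 well as the minimum, single wells, equal depth, plate as a term, the embryo as a block, only the classes compared, and leaving out embryos.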

Additional observations from a re-analysis of the deposited data

Results flagged for a closer look

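In 6 of 33 groups of 4 to 10 embryos, 1 embryo lay further from the rest than Dixon's limit allows. The limit is made for normally distributed values, and a group with all but 1 embryo at 0 exceeds it at any level. The number of flags therefore cannot be set against a chance rate. Lif was at 13.8 CPM in 1 E3.5 embryo with the other 9 at 0, at 2.49 CPM in 1 PrE-like embryo with the next at 0.688, and at 5.03 CPM in 1 E6.5 endoderm-like embryo with the other 6 at 0. Il6st was at 21.1 CPM in 1 E5.5 epiblast-like embryo, with the next at 9.06. Socs3 was at 66.3 CPM in 1 E4.5 epiblast-like embryo, with the next at 9.82, and at 137 CPM in 1 PrE-like embryo, with the next at 4.85. The PrE-like and epiblast-like Socs3 maxima belong to different embryos of plate P2, numbers 3 and 5.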

How the results depend on the processing

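The number of members that passed changed by more than 1.5 times as follows. With plate name as a term, it was 0 in place of 3 and 2 for the E4.5 classes against E3.5, 0 in place of 1 from E4.5 to E5.5 epiblast and 0 in place of 2 from E5.5 to E6.5 epiblast, and over all genes 32, 24, 36 and 37 passed in these fits in place of 2802, 2517, 804 and 1083. With only the classes compared in the fit it was 1 between the E4.5 lineages (Pim1), 2 from E4.5 to E5.5 epiblast (Lifr and Il6st), 1 from E5.5 to E6.5 epiblast (Lifr), 0 from E4.5 to E6.5 endoderm and 0 between the E6.5 lineages. Socs3 fell below the low-count filter of 4 of these fits, between the lineages at E4.5 and at E6.5, from E5.5 to E6.5 epiblast and from E4.5 to E6.5 endoderm, and was not tested there. With DESeq2 the number was 1 between the E4.5 lineages (Pim1) and 2 between the E6.5 lineages (Stat3 and Socs3). This Socs3 call sets 0 counts in endoderm-like sums against 38 in epiblast-like sums, of which 8 of 13 were also at 0. Its log2 value of -18.52 is a fitted value and no measured fold. The number between the E6.5 lineages was 0 with the embryo as a replicate block, 0 in single wells and 0 without cells titled E6.75, and the block changed no other call of a member. Sums of at least 1 cell gave 0 for PrE-like cells against E3.5. Alternatives chosen after seeing the data gave 1 (Stat3) for E4.5 epiblast-like cells and 0 for PrE-like cells against the E3.5 embryos of plate P9, and 1 (Stat3) without 4 E4.5 epiblast-like wells that had clustered with the later endoderm. Leaving out each E4.5 embryo in turn gave 1 to 2 for E4.5 epiblast-like and 0 to 2 for PrE-like cells against E3.5. Smaller shifts were Lifr newly passing for PrE-like cells against E3.5 (3 in place of 2 with DESeq2, Ward clustering or only the classes compared) and, for epiblast-like cells, Lifr lost in single wells (adjusted p = 0.0528) and Socs3 lost in sums of at least 1 cell (adjusted p = 0.0594). The drop of Lifr from E4.5 to E5.5 epiblast passed in 16 of 17 alternatives, all but the plate term. Of 832 values of members under an alternative, 775 kept their side of the limits, 42 no longer passed and 15 newly passed, and 47 had the other sign where neither fit passed. Of 575 values of named pathway genes 108 no longer passed. Except where a fit had fewer samples, the cause was not tested. Of 126 shares of wells 7 moved beyond their interval or spread. Lif, with a read in 29 wells, and Socs3 at E6.5 had the fewest counts of the members, so their differences rest on few wells.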
